A study of Mus musculus with 8 samples.

Results

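Transient receptor potential (TRP) channels are cation channels of the cell membrane, and the sensory members of the family are examined here: Trpa1 and 9 relatives, 10 genes in all, of which 9 were measured among the 21789 transcript clusters that carried a single gene symbol. The set was chosen by its family name around Trpa1, and Trpa1 itself was selected on its pattern of signal in these same arrays. A member was taken as the cluster annotated to that gene alone, and each of the 9 had 1 such cluster. Trpc2, a channel of vomeronasal neurons, shares its cluster with Xntrpc and Xndc1 and was not analysed here.

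TRP channels turn chemical, thermal or mechanical stimuli into an inward flow of cations. Some open on direct contact with an irritant or a temperature, and others open downstream of receptors that activate phospholipase C. In the nose they are best known from trigeminal nerve endings, which sense irritants, and from chemosensory microvillous cells of the olfactory epithelium. OSNs, the olfactory sensory neurons, use mainly a cyclic nucleotide-gated channel of another family.

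The arrays measured total RNA of olfactory mucosa from mice of a mixed 129 x C57BL/6J background at postnatal day 1. The 4 knockouts were OmpCre:Emx2 fl/fl, in which both copies of the homeodomain gene Emx2 are floxed and Cre is made from the Omp locus in mature OSNs. The 4 controls were littermates: numbers 1 to 3 had the genotype OmpCre:Emx2 fl/+, whereas number 4 lacked Cre and was Emx2 fl/fl. All 8 samples thus carried at least 1 floxed copy. Because Cre acts in mature OSNs only, other cells of the mucosa kept Emx2 in the knockouts, and the 3 controls with Cre could lose 1 copy. The study reports that OmpCre recombined a reporter gene in only part of the cells of the mature OSN layer. Some mature OSNs of the knockouts may therefore also have kept Emx2.

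The log2 signal of Emx2 was between 10.14 and 10.34 in knockouts, below its 10.58 to 10.89 in controls, and that of Omp, the marker of mature OSNs, was 12.60 to 12.91 in knockouts and 12.56 to 13.43 in controls. The Cre allele takes the place of 1 copy of Omp, and control 1, labelled as carrying it, had an Omp signal of 13.43, near the 13.29 of control 4 without Cre and above the 12.72 and 12.56 of controls 2 and 3. The reason was not tested, and without control 1 the Trpa1 difference given below was 0.85. Gap43 of immature OSNs was at 11.51 to 11.59 in knockouts and 11.59 to 11.76 in controls. Cyp2g1 of sustentacular cells was at 14.21 to 14.29 in knockouts and 14.17 to 14.31 in controls. Omp, Gap43 and Cyp2g1 all lay above the median signal of all clusters. Array medians ranged from 8.64 to 8.68. Control 2 stood apart on the first principal component, at 32.9 against -11.8 to 6.11 in the other arrays, and its mean over 9 myeloid genes was 9.80 against 8.84 to 9.05. The mean of 3 Y-linked genes was high in knockout 3 and controls 2 to 4 (10.53 to 10.72) and low in knockouts 1, 2 and 4 and control 1 (7.05 to 8.09). Xist was at 13.41 to 13.52 in those 4 arrays of low Y-linked signal and at 8.08 or less in knockout 3 and control 2, but controls 3 and 4 combined high Y-linked signal with an intermediate Xist signal of up to 10.35, and the source of this was not tested. The n of 4, the SDs and the split by Y-linked signal take each array as 1 mouse.

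Since the deleted gene encodes a homeodomain factor, the promoters of the members were searched for TAATTA, a core sequence bound by many homeodomain proteins, which reads the same on both strands. RefSeq promoter windows (build GRCm38.p6, 250 bases before to 50 after the start) were found for 7 of the 9 measured members. Trpa1 and Trpm4 had no window and were not searched. Among the members with a window, the motif was in 1, Trpm8, starting 195 bases before the start. Over all 32851 windows, where a gene can have more than 1, the motif was in 5.29%. The window of Trpm8 (chr1:88306485-88306784, + strand) is shown because it holds the match, in capitals, and that of Trpc6 (chr9:8543892-8544191, + strand) because Trpc6 had the largest difference among the members with a window. A match is a stretch of letters and not a known binding site.

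Trpm8: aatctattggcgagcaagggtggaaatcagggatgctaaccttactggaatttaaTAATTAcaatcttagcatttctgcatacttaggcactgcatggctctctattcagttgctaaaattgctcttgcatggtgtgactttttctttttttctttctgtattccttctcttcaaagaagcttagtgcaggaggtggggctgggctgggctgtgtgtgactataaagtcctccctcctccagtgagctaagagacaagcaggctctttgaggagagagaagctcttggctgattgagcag

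Trpc6: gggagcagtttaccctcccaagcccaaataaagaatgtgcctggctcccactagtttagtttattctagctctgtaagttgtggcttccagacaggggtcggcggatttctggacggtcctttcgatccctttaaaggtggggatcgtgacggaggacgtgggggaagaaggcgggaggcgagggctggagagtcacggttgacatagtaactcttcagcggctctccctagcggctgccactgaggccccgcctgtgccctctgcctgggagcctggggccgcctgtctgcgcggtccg

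Trpa1, the channel opened by mustard oil and other reactive irritants, was higher in the knockouts. Its log2 signal was 7.45, 7.54, 8.11 and 7.48 in knockouts 1 to 4, against 6.84, 6.79, 6.91 and 6.68 in controls 1 to 4. All 4 knockouts lay above all 4 controls, and the lowest knockout stood clear of the highest control. The means were 7.64 ± 0.31 in knockouts and 6.80 ± 0.09 in controls (SD, n = 4 each), a log2 difference of 0.84 ± 0.14 (SE of the difference), or 1.79-fold. Since Trpa1 was chosen for this pattern, the difference is a description and is given with no test. No detection calls were used, so it is not known whether a cluster read above background in a group. Trpa1, Trpc6, Trpv1, Trpm5 and Trpm8 all lay below the median signal of all clusters. Where a group was at background, a fold printed here would be a lower bound, and a small difference could understate the true one. A difference in the number of cells of a type and one in the RNA per cell cannot be told apart in these arrays, here or in the results below.

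Most of the spread of Trpa1 among knockouts came from knockout 3, at 8.11 where the others lay between 7.45 and 7.54. Without knockout 3 the difference was 0.69. The within-group SD of Trpa1 was 0.23, which placed it at the 91.0th percentile of spread over all tested clusters. The no-Cre control 4 gave the lowest signal, 6.68, and with the 3 Cre-carrying controls alone the difference was 0.80.

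Knockout 3 was also the 1 knockout of high Y-linked signal. Among the arrays of high Y-linked signal Trpa1 was 8.11 in knockout 3 against a mean of 6.79 in 3 controls (difference 1.31), and among those of low signal it averaged 7.49 in 3 knockouts against 6.84 in control 1 (0.65). Each of these comparisons rests on 1 array in one of its groups, and whether they differ from each other was not tested. In a fit that carried the Y-linked signal as covariate, the difference was 1.04. Trpa1 was higher in knockouts within both sets of arrays, but no other outcome was possible, since all knockouts lay above all controls.

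**Figure D1:**
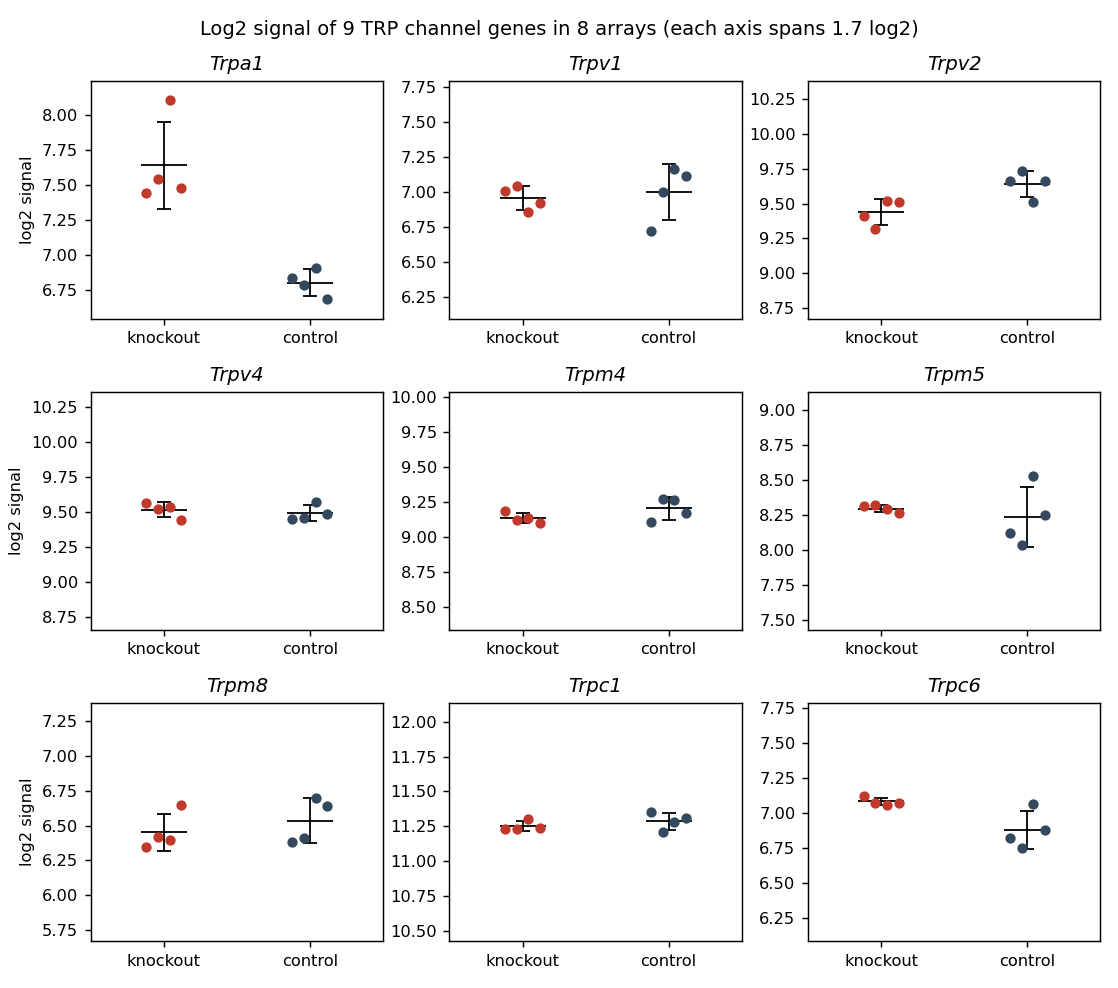
Log2 signal of the 9 measured TRP channel genes in each of the 4 knockout arrays (red points, left) and 4 control arrays (dark points, right), with the group mean (bar) and SD (whiskers); every vertical axis spans the same width. Trpa1 lies at 7.45 to 8.11 in knockouts and 6.68 to 6.91 in controls, and in the other 8 genes the groups overlap.

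Of the 9 measured members, 4 had a higher mean in the knockouts (Trpa1, Trpc6, Trpm5 and Trpv4) and 5 a lower one, where 51.4% of all tested clusters were higher. The median difference of the members was -0.03, against 0.0024 over all clusters. All knockouts lay above all controls in 1 member, Trpa1, which had been chosen for that, where 1.62% of all clusters did so. In 0 members did all knockouts lie below all controls, against 1.48% of all clusters. These shares are given beside the counts only, since the contrast was known when the set was made.

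Next to Trpa1 in size stood Trpc6, a channel opened by diacylglycerol after phospholipase C activation. It gave 7.12, 7.08, 7.06 and 7.08 in knockouts 1 to 4 and 6.82, 6.75, 7.07 and 6.88 in controls 1 to 4, a difference of 0.20 ± 0.07 (1.15-fold). In this gene 3 of 4 knockouts lay above all controls, and control 3 fell among the knockouts. The knockouts were closely grouped (SD 0.03) and the controls less so (SD 0.14). Without control 3 the difference was 0.27 and without control 2 it was 0.16. The mean of 6 smooth muscle and pericyte genes, cells that are known to make Trpc6, was 10.61 to 11.22 in knockouts and 10.82 to 11.02 in controls, and its part in the Trpc6 values was not tested.

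Trpv2, a channel of sensory neurons and macrophages, moved the other way. Its signal was 9.41, 9.32, 9.52 and 9.51 in knockouts 1 to 4 and 9.66, 9.74, 9.51 and 9.66 in controls 1 to 4, with a difference of -0.20 ± 0.07 (0.870-fold). In 2 of 4 knockouts the signal lay below all controls, and control 3 again overlapped the other group. Control 2, the array with the high myeloid mean, also held the highest Trpv2 signal, and without it the difference was -0.17. Over all arrays the myeloid mean was 8.87 to 9.05 in knockouts and 8.84 to 9.80 in controls, and its part in the Trpv2 values was not tested.

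The remaining channels of thermal and irritant sensing showed smaller differences. Trpv1, the capsaicin and heat receptor, had signals of 6.85 to 7.05 in knockouts and 6.72 to 7.17 in controls (difference -0.04 ± 0.10). The knockouts lay within the range of the controls, and the difference was 0.01 without control 3 and -0.14 without control 1. Trpm8, the receptor for menthol and cold, ranged from 6.35 to 6.65 in knockouts and from 6.38 to 6.70 in controls (-0.08 ± 0.09). Trpv4, which responds to osmotic and mechanical stimuli and is abundant in cartilage, was at 9.44 to 9.56 in knockouts and 9.45 to 9.57 in controls (0.02 ± 0.05). The mean of 7 cartilage and bone genes was 9.65 to 10.05 in knockouts and 9.44 to 9.97 in controls, with 7 of 7 genes higher and 0 called by limma after adjustment, as 0% of all clusters were, and Trpv4 itself did not separate the groups.

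Trpm4 and Trpm5 are channels for monovalent cations that open when intracellular calcium rises, and Trpm5 is the transduction channel of taste cells and a marker of microvillous cells. Trpm5 signals were 8.31, 8.32, 8.29 and 8.26 in knockouts and 8.12, 8.03, 8.53 and 8.25 in controls. The knockouts were tightly grouped inside the wider range of the controls (SD 0.03 and 0.21), and the difference of 0.06 ± 0.10 was -0.0042 without control 2 and 0.16 without control 3. The 15 listed genes of microvillous and brush cells averaged 8.72 to 8.79 in knockouts and 8.69 to 8.83 in controls, with 4 genes higher, 11 lower and 0 at an unadjusted limma p under 0.05, a level that 2.62% of all clusters passed as higher and 2.55% as lower. So few genes give no reading of a count of 0. Trpm4 ranged from 9.10 to 9.18 in knockouts and from 9.10 to 9.27 in controls (-0.07 ± 0.05). Trpc1, a subunit that joins other TRPC proteins, ranged from 11.23 to 11.31 in knockouts and from 11.21 to 11.35 in controls (-0.03 ± 0.05).

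**Figure D2:**
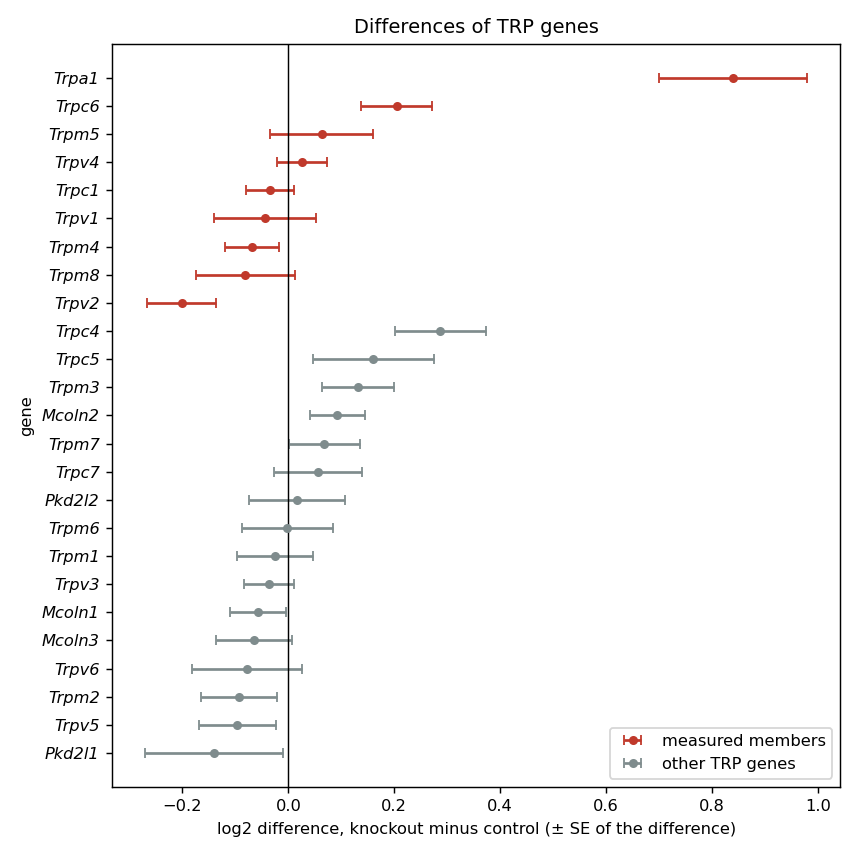
Log2 difference of knockout minus control (points) with its SE (bars, n = 4 arrays per group) for the 9 measured members (red, upper block) and 16 other TRP genes (grey, lower block), each block sorted by size. Trpa1 at 0.84 stands apart, and the other genes lie between -0.20 and 0.29.

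Of the 8 other members, Trpv2, Trpv4, Trpm5 and Trpc6 kept 1 sign within both sets of arrays of like Y-linked signal: among arrays of high and of low signal the differences were -0.12 and -0.25 for Trpv2, 0.03 and 0.06 for Trpv4, 0.02 and 0.18 for Trpm5, and 0.16 and 0.27 for Trpc6. Those of Trpv1 (-0.24 and 0.27), Trpm4 (-0.10 and 0.03), Trpm8 (-0.19 and 0.09) and Trpc1 (0.04 and -0.12) took opposite signs, again with a single array in one group of each comparison.

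Scaling bears on the small differences. When the arrays were shifted to an equal mean of 18 mature OSN genes, which was 11.51 to 11.76 in knockouts and 11.54 to 11.85 in controls (mean difference -0.11), the median difference of all genes became 0.108, against 0.0024 without the shift. The differences of Trpv1, Trpm4, Trpm8 and Trpc1 were then positive (0.06, 0.04, 0.02 and 0.07), that of Trpv2 was -0.10, and 8 of 9 members were higher. Trpa1 was at 0.95 and Trpc6 at 0.31 under this scaling. Of the 18 mature OSN genes 13 were lower in the knockouts, 4 of them at an unadjusted limma p under 0.05 and 0 after adjustment, and in 2 all knockouts lay below all controls. Over all clusters, 2.55% were lower at that unadjusted level and 0% were called after adjustment. In 1.48% of all clusters all knockouts lay below all controls.

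The comparison of other TRP genes asked whether relatives outside the sensory set differed. Of 18 listed TRPC, TRPM, TRPV, mucolipin and polycystin genes, 16 were measured, and 7 had a higher and 9 a lower mean in the knockouts, with a median difference of -0.01. Adjusted over all 21789 clusters, limma called 0 of the 16 at 0.05, as it called 0% of all clusters. At an unadjusted p under 0.05, 1 gene was higher and 0 were lower, where 2.62% and 2.55% of all clusters were. A count of 1 among 16 genes gives no reading. The gene at that level was Trpc4, which forms channels activated through phospholipase C. Its signal was 8.58, 8.36, 8.76 and 8.48 in knockouts and 8.25, 8.37, 8.24 and 8.16 in controls. In 3 of 4 knockouts it was above all controls, and the groups differed by 0.29 ± 0.09 (1.22-fold, limma adjusted p = 0.805). The differences of the other 15 ranged from -0.14 to 0.16. Trpc4 is known from vascular cells. The mean of 6 endothelial genes was 9.54, 9.66, 9.12 and 9.75 in knockouts 1 to 4, and 9.36 to 9.45 in controls. Of these genes 6 of 6 were higher and 0 were called after adjustment, where 51.4% and 0% of all clusters were. Their part in the Trpc4 values was not tested.

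Genes that act before TRP channels were read in the same way. Of 21 listed G-protein subunits, phospholipases C, inositol trisphosphate receptors, store-operated calcium entry genes and channel partners, 20 were measured, with 11 higher, 9 lower and a median difference of 0.02. Limma called 0 of 20 after adjustment, as it called 0% of all clusters. At an unadjusted p under 0.05 it called 0, a level that 2.62% of all clusters passed as higher and 2.55% as lower. Counts of 0 among 20 genes give no reading, and the deleted gene Emx2 was itself not called (limma adjusted p = 0.201). Those with the smallest p were Gng13, a G-protein subunit of OSNs and taste cells (-0.14 ± 0.09, limma adjusted p = 0.910), Gnaq, which activates phospholipase C (0.08 ± 0.05, 0.910), and Gnb3, a further G-protein subunit (-0.09 ± 0.06, 0.910). In all 20 the groups overlapped. Over all clusters, all knockouts lay above all controls in 1.62% and below them in 1.48%.

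Trpa1 is best known from trigeminal and other somatosensory neurons, whose cell bodies lie outside the mucosa, so their markers were read beside it. Of 10 listed, 8 were measured, and their mean was 7.62 to 7.67 in knockouts and 7.57 to 7.71 in controls, with 4 genes higher and 4 lower. Scn10a, a sodium channel of nociceptors, was at 6.43 to 6.75 in knockouts and 6.27 to 6.83 in controls, and the purine receptor gene P2rx3 at 7.79 to 7.98 in knockouts and 7.67 to 7.96 in controls. In both the groups overlapped. The 2 markers of largest difference are named after their values were seen. Calcb, a calcitonin gene-related peptide gene, gave 7.23 to 7.63 in knockouts and 7.42 to 8.18 in controls (-0.28 ± 0.16, limma adjusted p = 0.910). Tac1, the precursor of the neuropeptide substance P, gave 6.78 to 7.25 in knockouts and 6.51 to 6.70 in controls (0.38 ± 0.10, limma adjusted p = 0.693). It was the 1 marker of this list in which all knockouts lay above all controls, as they did in 1.62% of all clusters. The other 3 lower markers, Prph, Scn11a and Mrgprd, had differences of -0.13 ± 0.17, -0.09 ± 0.08 and -0.03 ± 0.04. The part of such neurons in the Trpa1 values was not tested.

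Across the 8 arrays, the genes whose profile was most like that of Trpa1, by Pearson's r among all tested clusters, were Gbe1 (r = 0.981), which encodes the glycogen branching enzyme, Ly75 (0.973), an endocytic receptor of dendritic cells, Pbx2 (0.968), a homeodomain cofactor, Zfp607a (0.960), a zinc finger gene, and Pcdhb20 (0.953), a clustered protocadherin. Spearman's rho was 0.762, 0.810, 0.881, 0.929 and 0.905 in the same order, and without knockout 3 and control 4, the 2 arrays farthest from the median of Trpa1, r was 0.993, 0.966, 0.911, 0.923 and 0.899. These values describe genes picked for the highest r and are given with no p. In all 5 the knockouts lay above all controls, so r holds the gap between the groups as well as the spread within them. The differences were 0.44 for Gbe1, 0.18 for Ly75, 0.10 for Pbx2, 0.24 for Zfp607a and 0.10 for Pcdhb20, each smaller than that of Trpa1. Gbe1 shared the high value of knockout 3, at 10.81 against 10.53 to 10.55 in the other knockouts and 10.13 to 10.21 in controls. Trpa1 was itself highest in knockout 3, so the choice by r favours genes that are high in that array.

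**Figure D3:**
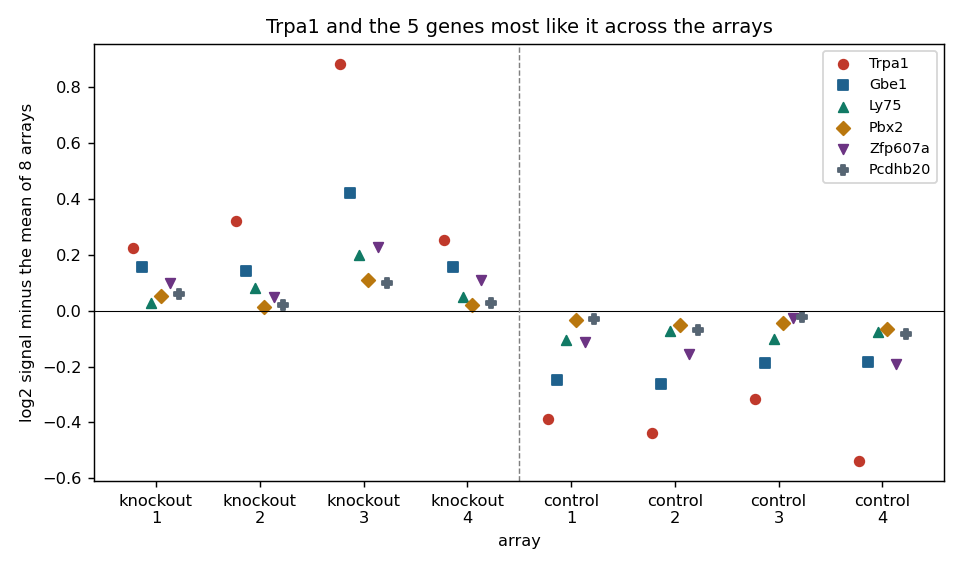
Log2 signal minus the gene's mean over the 8 arrays, for Trpa1 (red circles) and the 5 genes of highest Pearson's r to it, in knockouts (left of the dashed line) and controls (right). All 6 genes are above 0 in knockouts and below 0 in controls, and knockout 3 is the highest array in each. The 5 genes were picked for likeness to Trpa1, which favours both features.

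The neighbours of Trpa1 on chromosome 1 were read beside it. The 3 nearest measured protein-coding genes on each side, chosen after the values of Trpa1 were seen, had differences of -0.02 ± 0.07 (Xkr9), 0.04 ± 0.05 (Eya1), -0.04 ± 0.10 (Msc), 0.10 ± 0.08 (Kcnb2), 0.11 ± 0.08 (Terf1) and 0.10 ± 0.14 (Sbspon). In each of the 6 genes the groups overlapped. Among all clusters only 1.62% had all knockouts above all controls and 1.48% below, so overlap in 6 genes gives no reading. Kcnb2, the nearest of these on one side, ranged from 8.16 to 8.40 in knockouts and from 8.05 to 8.34 in controls, and Msc on the other side from 7.28 to 7.53 in knockouts and from 7.22 to 7.62 in controls.

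**Figure D4:**
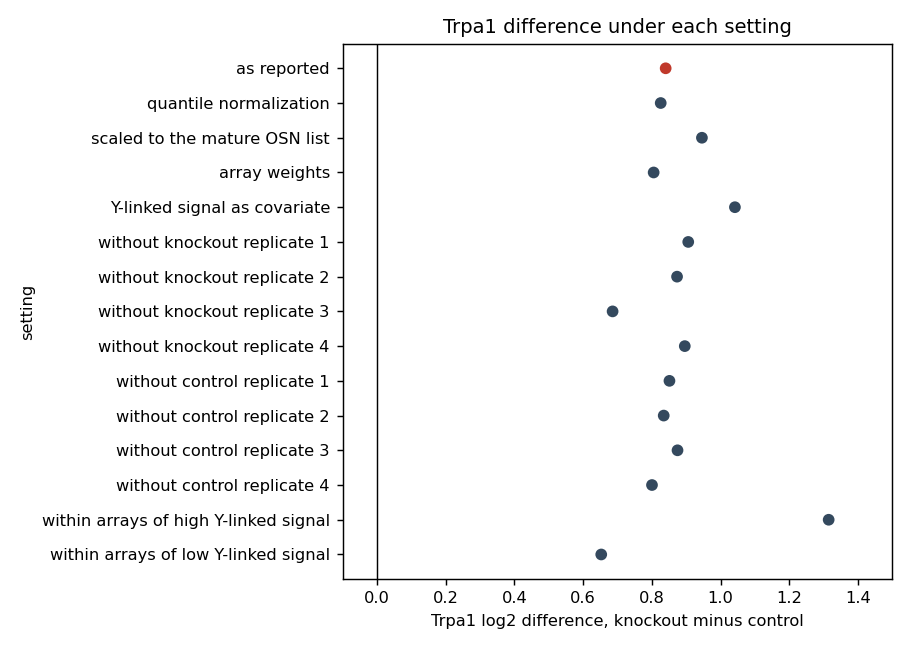
Log2 difference of Trpa1, knockout minus control, as reported (red) and under 14 alternatives (dark points), from other scalings and weights to single arrays left out and arrays of like Y-linked signal. The values run from 0.65 to 1.31, and all are above 0. Since all knockouts lay above all controls, leaving out, weighting or splitting the arrays could not give a value below 0.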

How the data were processed

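The authors deposited 1 log2 signal per gene-level transcript cluster and array, which merges the probe sets of a gene's exons, from Affymetrix Mouse Gene ST arrays. Affymetrix Expression Console is the software given in the submitters' processing notes. Its version and algorithm are not given in the sources used here, and no detection calls were used. Medians were alike on all 8 arrays, so the values were not normalized again. Arrays give no counts, and their number (4 per group) limits the precision. The brightness of a cluster also depends on its probes, so levels of single genes were not compared with each other. Only the median signal of all clusters was used as a reference.

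Gene names came from the platform annotation: of 35557 clusters, 21789 had 1 symbol and were tested, 1621 had several and 12147 had none there. A total of 21698 tested clusters matched the RefSeq gene table (GRCm38.p6), with 0 symbols changed. Gene order was read from that table.

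Knockouts and controls were compared by limma (version 3.58.1, R 4.3.3) across all tested clusters, with Benjamini-Hochberg adjustment, two-sided, after a check on simulated data. SE values come from this fit. In the study's methods every litter that gave knockouts gave controls too, but the labels do not tie arrays to litters, so litter was left out of the fit. Replicate numbers follow accession order. The members, lists and rules were chosen with earlier results of these data known, so members are described without p-values. For the same reason the p-values and counts printed for the other lists are descriptions only. Of the other TRP genes and of the upstream genes, those at an unadjusted p under 0.05 were named, or otherwise the 3 of smallest p, and for the likeness to Trpa1 the 5 genes of highest Pearson's r. Arrays were called high in Y-linked signal above a mean of 9.5.

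Alternatives were quantile normalization, scaling to mature OSN genes, array weights, a Y-linked covariate, the methods' t-test, a filter at the median signal and each array left out. Comparisons within arrays of like Y-linked signal were added after seeing the data.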

Additional observations from a re-analysis of the deposited data

Results flagged for a closer look

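In groups of 4 arrays, a value was singled out when its gap to the nearest other array, relative to the range of the group, exceeded Dixon's critical value. Of 80 groups examined, 6 met this, and chance alone meets it in about 1 of 20 groups. Since Trpa1 was selected on its pattern, and Gbe1 on its likeness to Trpa1, the count of 6 cannot be read against that share. Trpa1 in knockout 3 was at 8.11 where the other knockouts lay at 7.45 to 7.54, and in the same array Trpc1 was at 11.31 against 11.23 to 11.24 and Gbe1 at 10.81 against 10.53 to 10.55. Cyp2g1 in knockout 2 was at 14.29 against 14.21 to 14.22. The mean of the myeloid genes in control 2 was 9.80 against 8.84 to 8.92 in the other controls. The mean of the genes of vomeronasal neurons and Trpc2 cells in control 1 was 7.28 against 6.66 to 6.71, and in knockouts this mean ranged from 6.65 to 7.18.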

How the results depend on the processing

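The Trpa1 difference (0.84) was positive under all 14 alternatives, at 0.69 to 0.91 with single arrays left out and 1.31 within the arrays of high Y-linked signal. All Trpa1 knockouts lay above all controls, so leaving out, weighting or splitting the arrays could not change this sign. The signs of Trpv2, Trpv4 and Trpc6 also held under all 14. Those of Trpv1 (3 alternatives), Trpm4, Trpm8 and Trpc1 (2 each) and Trpm5 (1) turned at least once. Members with a higher mean numbered 4, and 8 with scaling to the mature OSN genes. Leaving out single arrays gave 3 to 5. Over all clusters limma called 0 genes after adjustment, against 5 with that scaling, 5 with array weights and 4 among clusters above the median signal (0 to 1 with single arrays left out). The methods' t-test called 0 after adjustment, with 203 of 21789 clusters at an unadjusted p under 0.01. With no difference in any cluster, a share of 0.01 would be expected there, and 203 does not exceed it. The study used that p threshold together with a false discovery rate limit and a scaling to mature OSN mRNAs, neither of which is in the count of 203. Of the same 21789 clusters, 1126 had an unadjusted limma p under 0.05, and 692 with the Y-linked covariate. Of the other TRP genes 1 was at that level, against 2 (Trpc4 and Trpm3) with the mature OSN scaling and 0 above the median signal, a filter that leaves Trpc4 out. With single arrays left out the count was 1 to 5, the 5 being without control 1. Trpc4 stayed at that level in all 13 alternatives that tested it (0.22 to 0.39), with adjusted p between 0.590 and 0.9998. It was named for that level in these same arrays, so staying there is no separate support. Of the upstream genes 0 were at that level, against 1 with the Y-linked covariate (Gnat3) and 1 with the methods' t-test (Stim1). With single arrays left out the count was 0 to 3, the 3 being without knockout 3. After adjustment neither of these lists had a call in any alternative. The causes of these changes were not tested. No paired analysis was possible because the replicate numbers follow accession order only and the labels do not give the litter of each array. The Cre-carrying controls alone are the same arrays as without control 4 and were counted once. Averaging several clusters of a gene could not change a member, since each had 1.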
